A study of Mus musculus with 15 samples.

Results

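The non-clustered protocadherins are cell surface proteins whose genes lie scattered over the genome, apart from the clustered alpha, beta and gamma protocadherin genes. The list held 10 autosomal family members: Pcdh1, Pcdh7, Pcdh8, Pcdh9, Pcdh10, Pcdh12, Pcdh15, Pcdh17, Pcdh18 and Pcdh20. CpG methylation was taken from reduced representation bisulfite sequencing (RRBS), an assay in which DNA cut by a restriction enzyme is treated with bisulfite, so that methylated cytosines are still read as C and unmethylated ones as T. The CpGs were those within the 10 genes and 5 kb upstream (mm9, GENCODE vM1) that had at least 10 reads in all 15 libraries, which left 217 of the 1079 CpGs of these genes seen in any library, and 217 of 241527 such CpGs over all autosomes. The genes were listed by name with earlier results of these data known, and their CpGs were chosen by read depth, not by methylation level. The 36 CpGs just inside this limit, with 10 or 11 reads in their shallowest library, averaged 23.8% methylation in double mutant cells, against 11.98% in wild type MEPs, and the 38 just outside it, with 8 or 9 reads, averaged 34.9% in double mutant cells, against 27.9% in wild type MEPs.

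The study sorted mouse bone marrow progenitors of 4 genotypes, in 7 groups, all on the C57BL/6 strain. The double mutant cells (Mx1-cre+;Dnmt3a-/-;Idh2 R140Q, n = 3) were labelled as malignant hematopoietic stem and progenitor cells and carried the surface markers of megakaryocyte-erythroid progenitors (MEP; Lin-, cKit+, Sca1-, CD34-, Cd16/32-), so MEPs of the other genotypes were used as their counterparts. Dnmt3a knockout cells (Mx1-cre+;Dnmt3a-/-), Idh2 mutant cells (Mx1-cre-;Dnmt3af/f;Idh2 R140Q) and wild type cells (Mx1-cre+;Dnmt3af/f) each came as MEPs and as granulocyte-macrophage progenitors (GMP; CD34+, Cd16/32+), with n = 2 per group. Mx1-cre drives recombination in interferon-responsive cells, blood cells among them, and Dnmt3a encodes a de novo DNA methyltransferase. The R140Q form of the mitochondrial enzyme Idh2 makes 2-hydroxyglutarate, an inhibitor of the TET enzymes that oxidise methylated cytosine. The Idh2 mutant animals had floxed Dnmt3a alleles without the cre transgene, whereas the wild type cells had the same alleles with it. Ages were not given, and the labels call the libraries biological replicates without saying whether each came from a separate animal, so p-values measure the spread between these libraries.

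Protocadherins hold extracellular cadherin repeats, which in many of them bind the same protein on a neighbouring cell, and many act in sorting and connecting neurons. The delta2 group (Pcdh8, Pcdh10, Pcdh17 and Pcdh18 here) and the delta1 group (Pcdh1, Pcdh7 and Pcdh9) share conserved motifs in their cytoplasmic tails, and several delta2 proteins bind the actin-regulating WAVE complex. Pcdh12 is known from endothelium, Pcdh15 from the tip links of inner ear hair cells, and Pcdh20 from neurons. In human cancers PCDH8, PCDH10, PCDH17 and PCDH20 are known as genes whose promoters become methylated.

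Total reads over cytosines ranged from 28001420 to 31657332 in double mutant libraries, from 20541812 to 26086791 in Dnmt3a knockout, from 19306705 to 24587340 in Idh2 mutant and from 30751438 to 35204906 in wild type libraries. Reads on mitochondrial CpGs, a rough measure of unconverted cytosines, were called methylated at 0.280% to 3.27%, so levels below about 3% were close to this floor. The wild type libraries stood apart from all others on the sex chromosomes, with X chromosome reads at 1.17% to 1.47% of autosomal reads in the 11 mutant libraries, against 2.21% to 2.25% in wild type. Y chromosome reads per 1000000 autosomal reads numbered 357 to 386 in double mutant libraries. They numbered 203 to 303 in Dnmt3a knockout libraries, 199 to 288 in Idh2 mutant libraries and 54.0 to 57.5 in wild type libraries, so double mutant libraries also lay above both single mutants. The highest count the files hold was reached on 15 rows of each double mutant and wild type library, against 1 to 9 rows in each single mutant library. Genotype and these differences cannot be told apart, and their part in the results was not tested. Read depth over Dnmt3a coding exons was 2.37 to 3.93 per 1000000 reads in double mutant, 1.18 to 3.27 in Idh2 mutant and 2.48 to 3.17 in wild type libraries. Knockout replicate 1 lay below all of these, at 0.728 in MEPs and 0.542 in GMPs, but knockout replicate 2 had 3.16 in MEPs and 3.70 in GMPs. Depth rested on few reads and was summed over all coding exons, so it did not check the knockout in either replicate. No double mutant library had a depth as low as knockout replicate 1, so depth did not check their knockout either. Of 6 granulocyte-macrophage, 6 megakaryocyte-erythroid and 4 lymphoid marker genes, 1, 2 and 1 promoters could be tested and no marker promoter differed between MEPs and GMPs, so methylation did not check the sort.

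RRBS reached the 10 genes unevenly. At least 3 CpGs were required for a test. That left 6 promoters (within 1 kb of an annotated start site), 7 sets of coding exons (outside promoters) and 7 remaining parts of genes with their upstream regions. Pcdh10 and Pcdh18 had 2 promoter CpGs each, and Pcdh15 had 1 coding CpG. Pcdh9 had no promoter or coding CpG at this depth, Pcdh12 no promoter CpG and Pcdh18 no coding CpG. In 9 of the 10 genes the longest coding interval spanned 2277 to 3174 bp, and in Pcdh15, whose product is encoded by many small exons, it was 1441 bp.

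Sequences of 6 stretches are shown, 5 of them more methylated and 1 less methylated in double mutant cells. Each is the densest cluster of measured CpGs in a chosen part of a gene. They do not hold all the CpGs behind the results below. The Pcdh8 stretch has 13 of its 34 coding CpGs, and the Pcdh15 and Pcdh17 promoters are not shown. Each is read 5′ to 3′ in the direction of transcription from the mm9 genome, and capitals mark the CpGs that were measured. The Pcdh10 coding stretch lies at chr3:45184942-45185007, plus strand, 2642 to 2666 bp after the start site, and its 3 CpGs had group means of 77.5% to 96.0% in double mutant cells and 0.833% to 3.07% in wild type MEPs.
Pcdh10 coding: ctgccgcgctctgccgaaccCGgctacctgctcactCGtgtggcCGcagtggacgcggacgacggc
The stretch upstream of Pcdh10, chr3:45180867-45181029, plus strand, held 6 CpGs at 18.5% to 86.9% in double mutant cells and 0.543% to 23.5% in wild type MEPs.
Pcdh10 upstream: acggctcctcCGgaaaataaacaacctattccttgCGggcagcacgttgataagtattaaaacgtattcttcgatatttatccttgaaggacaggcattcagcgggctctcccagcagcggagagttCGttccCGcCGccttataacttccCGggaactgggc
The Pcdh8 coding stretch, chr14:80168360-80168527, minus strand, held 13 CpGs at 16.2% to 73.9% in double mutant cells and 0% to 13.1% in wild type MEPs.
Pcdh8 coding: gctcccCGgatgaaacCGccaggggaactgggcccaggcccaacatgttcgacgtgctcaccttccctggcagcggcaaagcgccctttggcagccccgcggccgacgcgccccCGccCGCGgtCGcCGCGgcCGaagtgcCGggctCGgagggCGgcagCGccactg
The Pcdh18 promoter stretch, chr3:49561263-49561332, minus strand, held 2 CpGs 68 and 50 bp before the start site.
Pcdh18 promoter: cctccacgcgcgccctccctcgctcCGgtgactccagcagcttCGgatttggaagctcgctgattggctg
The Pcdh20 coding stretch, chr14:88869294-88869442, minus strand, held 3 CpGs at 12.7% to 76.2% in double mutant cells and 2.31% to 10.4% in wild type MEPs.
Pcdh20 coding: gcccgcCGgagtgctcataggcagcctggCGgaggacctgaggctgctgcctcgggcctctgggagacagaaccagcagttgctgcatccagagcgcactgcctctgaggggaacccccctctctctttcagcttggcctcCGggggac
The Pcdh7 coding stretch, chr5:58111981-58112151, plus strand, held the 3 CpGs that were less methylated in double mutant cells, at 8.35% to 24.9%, against 65.2% to 94.0% in wild type MEPs.
Pcdh7 coding: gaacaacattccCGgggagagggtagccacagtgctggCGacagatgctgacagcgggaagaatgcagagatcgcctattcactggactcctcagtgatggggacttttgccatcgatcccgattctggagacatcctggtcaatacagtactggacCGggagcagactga

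The first question was how double mutant cells differed from wild type MEPs. Promoters or coding exons of Pcdh8, Pcdh10, Pcdh15, Pcdh17 and Pcdh20 were more methylated in double mutant cells, by 17.6 to 63.2 percentage points, and the coding exons of Pcdh7 were less methylated, by 25.1 points. Of the 13 promoter and coding exon sets tested, 8 were called higher and 1 lower. A set was called where the group means differed by 10 percentage points or more and the adjusted p lay below 0.05 in a quasi-binomial logistic model of methylated reads, with Benjamini-Hochberg adjustment over every gene measured in that class. The background over all genes was 11.0% of 10565 promoters higher and 0.568% lower, and 13.6% of 2118 coding exon sets higher and 2.6% lower. The median difference was 20.9 points over the 6 member promoters and 22.7 points over their 7 coding exon sets, and 0.247 and 3.30 points over all promoters and all coding exon sets. In bulk cells, more methylated alleles per cell and more cells with methylated alleles cannot be told apart.

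At single CpGs, all 3 double mutant libraries lay above all 12 other libraries at 63 of the 217 CpGs (29.0%) and below them at 7 (3.23%). Over all autosomal CpGs at this depth, 6.37% lay above and 1.47% below. Pcdh8 gave 20 of the 63 from its 34 coding CpGs and Pcdh15 gave 12 from its 16 promoter CpGs. Of the 7 CpGs that lay below, 3 were in Pcdh7 coding sequence, 3 in Pcdh15 introns and 1 in Pcdh12.

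**Figure D1:**
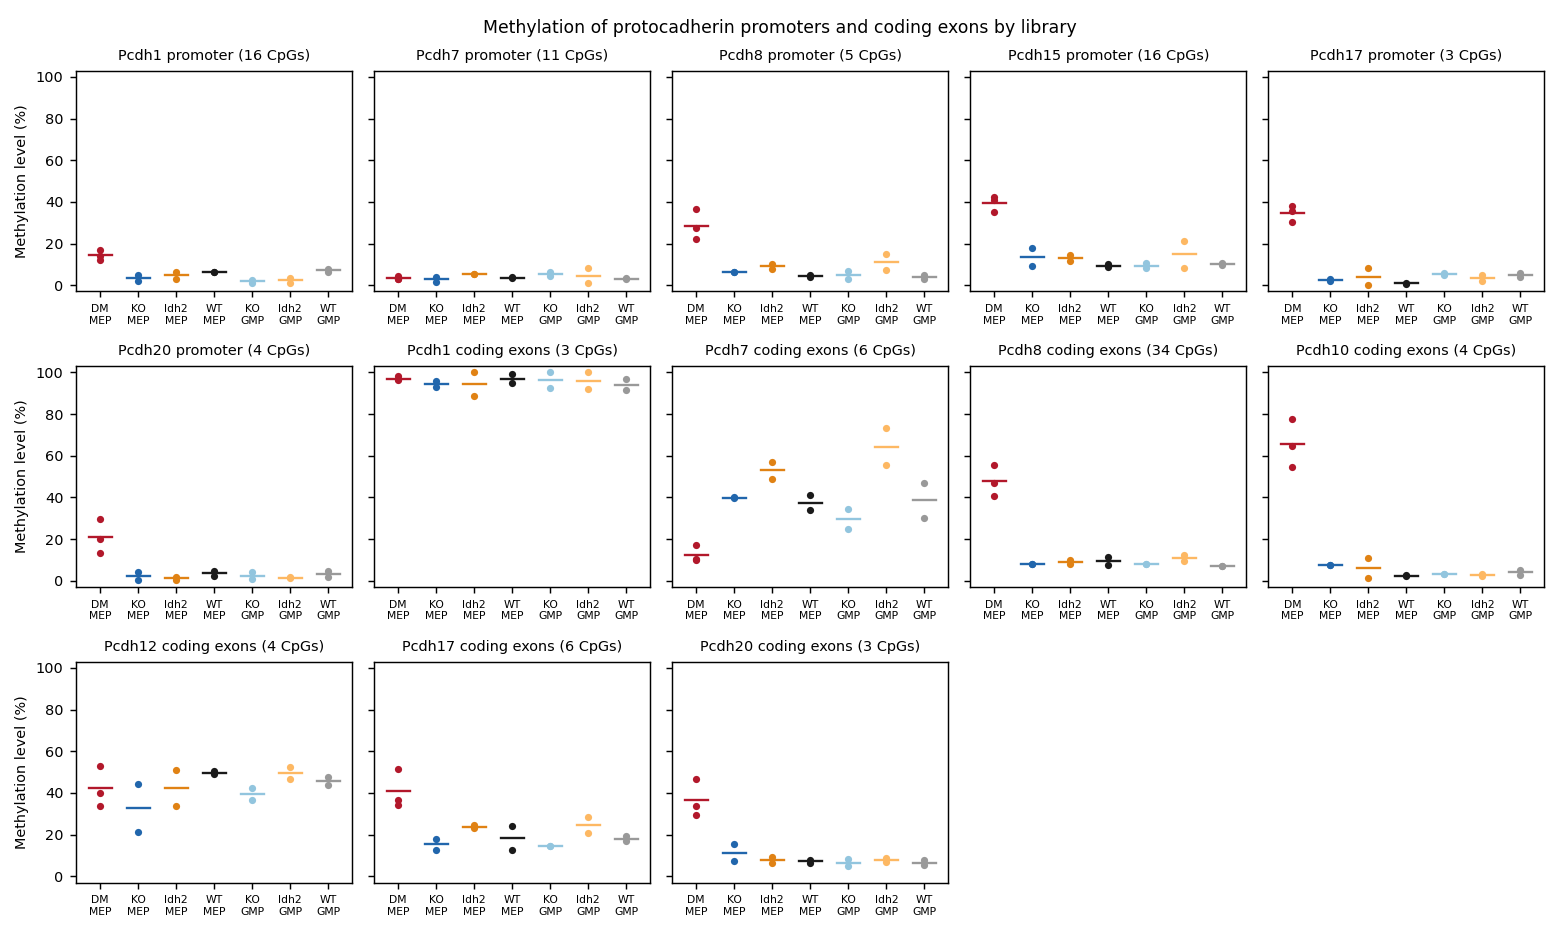
Methylation level in percent (y axis) of each promoter and coding exon set with at least 3 CpGs, by group (x axis: double mutant, Dnmt3a knockout, Idh2 mutant and wild type cells with MEP markers, then the 3 GMP groups). Points are libraries and bars are group means; in 8 panels the 3 double mutant points lie above the wild type MEP points by a called difference, and in the Pcdh7 coding panel they lie between 9.76% and 16.9%, below all others.

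Among the delta2 genes, Pcdh10, a homophilic adhesion protein of the developing brain, had coding exon levels of 64.5%, 77.8% and 54.5% in double mutant libraries, against 7.48% and 7.64% in Dnmt3a knockout MEPs, 11.01% and 1.5% in Idh2 mutant MEPs and 2.85% and 2.05% in wild type MEPs. The GMP libraries held 2.47% to 5.39%. Double mutant cells stood above every other library, by 63.2 points over wild type MEPs (adjusted p = 1.49e-06, quasi-binomial model), 58.1 points over knockout MEPs (adjusted p = 9.69e-06) and 59.4 points over Idh2 mutant MEPs (adjusted p = 1.09e-05).

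Within the Pcdh10 coding exon the 3 neighbouring CpGs printed above reached 82.2%, 83.3% and 88.1% in double mutant libraries, and 1.49% and 2.22% in wild type MEPs, over 42 to 73 and 180 to 201 reads. The fourth coding CpG, 3428 bp after the start site, averaged 39.8% in double mutant cells, 17.7% in Idh2 mutant MEPs and 5.23% in wild type MEPs. There the double mutant libraries, at 23.9% to 69.05%, overlapped the others, whose highest value was 32%. Upstream of the gene, 6 CpGs 1443 to 1302 bp before the start site stood at 52.8%, 49.0% and 42.9% in double mutant libraries, against 5.56% and 7.73% in wild type MEPs. The 2 promoter CpGs, 244 and 377 bp after the start site, had 50%, 49.6% and 59.9% in double mutant libraries, 0.943% and 3.96% in knockout MEPs, 0% in both Idh2 mutant MEP libraries and 9.32% and 7.21% in wild type MEPs. With fewer than 3 CpGs this promoter had no test. The class that holds the upstream CpGs, the rest of the gene, was 37.9 points higher in double mutant cells than in wild type MEPs (adjusted p = 2.67e-06, background 11.6% of 6458 higher).

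Pcdh8, which in rat is induced by neuronal activity and acts at synapses, had the most measured CpGs outside Pcdh15, with 34 in coding exons. Its coding exons had 40.8%, 55.5% and 46.8% in double mutant libraries, against 8.15% and 8.28% in knockout MEPs, 9.79% and 8.18% in Idh2 mutant MEPs and 7.40% and 11.2% in wild type MEPs. GMP libraries lay at 6.92% to 12.2%, and no library outside the double mutant group overlapped it. The difference was 38.4 points from wild type (adjusted p = 1.18e-07), 39.5 from knockout (adjusted p = 3.10e-07) and 38.7 from Idh2 mutant MEPs (adjusted p = 7.46e-07).

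The increase over Pcdh8 varied along the gene. The 5 promoter CpGs had 22.0%, 36.4% and 27.5% in double mutant libraries, 6.24% and 6.33% in knockout MEPs, 10.2% and 7.98% in Idh2 mutant MEPs and 5.09% and 3.82% in wild type MEPs (24.2 points over wild type, adjusted p = 0.000465). With promoters cut to 500 bp either side of the start, the difference from wild type was 13.3 points and lost its call (adjusted p = 0.0572), and the differences from knockout (9.28 points, adjusted p = 0.169) and Idh2 mutant MEPs (6.96 points, adjusted p = 0.421) did so too. Further upstream, 8 CpGs 3126 to 2562 bp before the start site had 14.03%, 27.2% and 16.3% in double mutant libraries and 2.58% and 1.95% in wild type MEPs. The coding exons thus held the higher levels and the flanks the lower ones in double mutant cells, as the plot of single CpGs by distance shows.

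**Figure D2:**
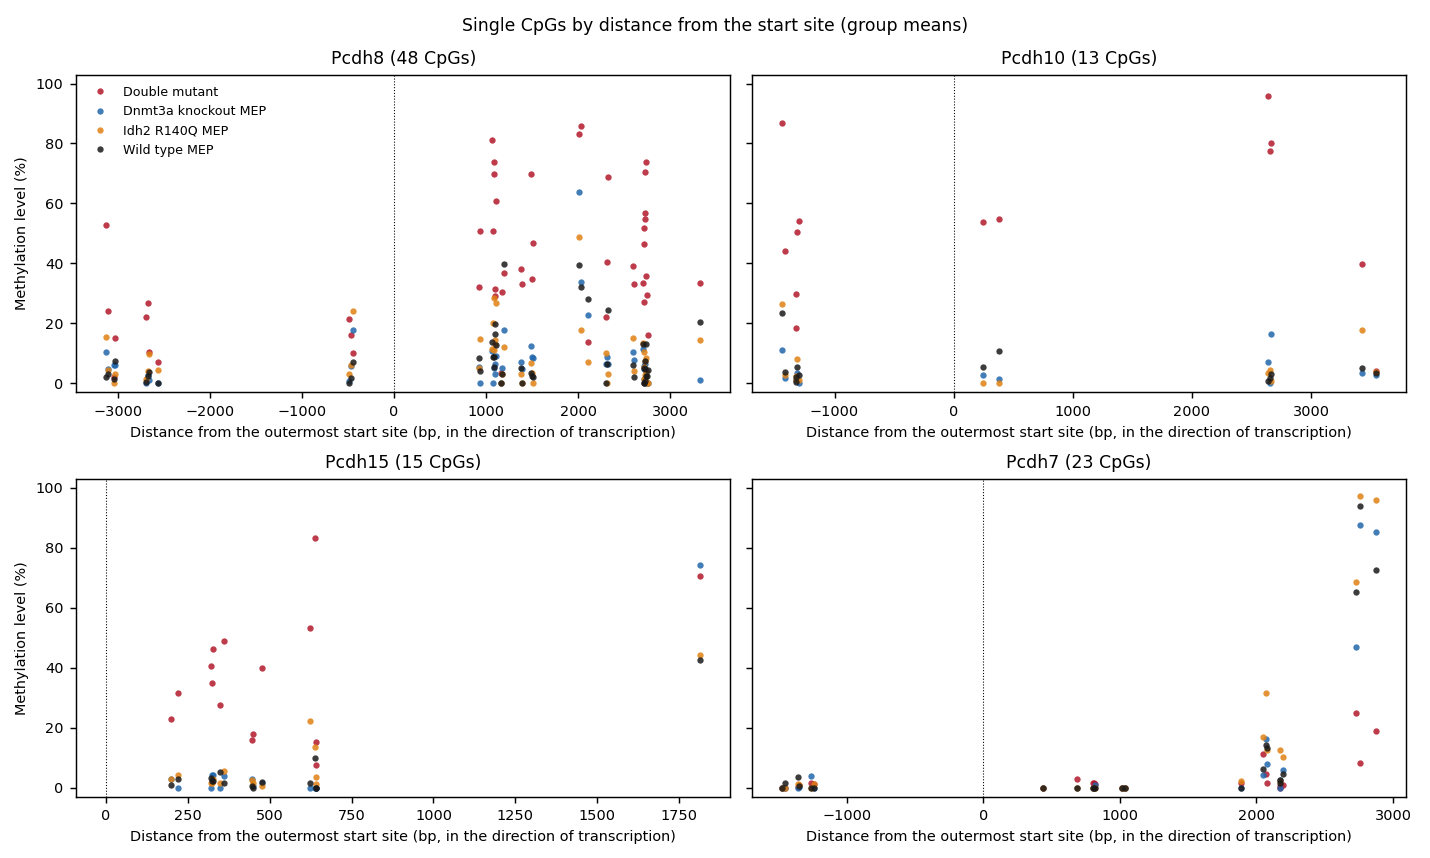
Group mean methylation in percent (y axis) of single CpGs by distance in bp from the outermost annotated start site (x axis, dotted line at the start) in Pcdh8, Pcdh10, Pcdh15 (start region) and Pcdh7, for double mutant, Dnmt3a knockout, Idh2 mutant and wild type cells with MEP markers. Double mutant points stand above the others over Pcdh10 up to 3428 bp after its start site and over the first 642 bp of Pcdh15. At the last Pcdh10 CpG, at 3548 bp, the points nearly coincide, with 3.98% in double mutant and 3.51% in wild type cells. Most CpGs of Pcdh8 are also higher in double mutant cells (not, for example, 2106 bp after its start site, with 13.9% in double mutant and 28.15% in wild type cells). Double mutant points lie below the others at 3 CpGs 2733 to 2878 bp into Pcdh7.

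Pcdh17, which acts at synapses of the basal ganglia, had 3 promoter CpGs at 35.8%, 30.6% and 38.2% in double mutant libraries, over 68 to 81 reads. The same CpGs had 1.99% and 3.20% in knockout MEPs, 8.07% and 0% in Idh2 mutant MEPs and 0.735% and 1.10% in wild type MEPs. The double mutant libraries lay above those of every other MEP group, and double mutant cells exceeded wild type MEPs by 34.0 points (adjusted p = 8.84e-05), knockout by 32.3 (adjusted p = 0.000114) and Idh2 mutant by 30.8 points (adjusted p = 0.000855). Its coding exons differed less, at 36.7%, 51.5% and 34.3% in double mutant libraries, 12.7% and 17.9% in knockout, 23.2% and 24.5% in Idh2 mutant and 12.4% and 24.0% in wild type MEPs. This was 22.7 points above wild type (adjusted p = 0.00491) and 25.6 above knockout (adjusted p = 0.000644), whereas 17.0 points above Idh2 mutant MEPs missed the threshold (adjusted p = 0.0504). Without wild type MEP replicate 1 the coding difference from wild type was 16.9 points and lost its call (adjusted p = 0.0617).

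Pcdh18, a delta2 protein that binds the adaptor Disabled in mouse brain, was covered by the 2 promoter CpGs printed above. They had 23.5%, 49.4% and 25% in double mutant libraries, 4.90% and 1.09% in knockout MEPs, 4.94% and 3.23% in Idh2 mutant MEPs and 0% and 0.571% in wild type MEPs. The double mutant libraries lay above all 12 others at both CpGs, without a test. When 1 CpG was enough for a test, the Pcdh10 and Pcdh18 promoters joined the calls, which then numbered 11 against wild type, 12 against knockout and 10 against Idh2 mutant MEPs.

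Among the delta1 genes the 3 members differed from one another. Pcdh1, an adhesion protein of airway epithelium, had promoter levels of 12.05%, 14.2% and 16.9% in double mutant libraries, against 2.00% and 5.13% in knockout MEPs, 3.06% and 6.49% in Idh2 mutant MEPs and 6.35% and 6.50% in wild type MEPs. The difference passed both thresholds against knockout MEPs alone (10.8 points, adjusted p = 0.00155), and fell under 10 points there without knockout MEP replicate 1 (9.25 points) or double mutant replicate 3 (9.54 points). Against wild type it was 7.96 points (adjusted p = 0.0401) and against Idh2 mutant MEPs 9.60 points (adjusted p = 0.0131). Its 3 coding CpGs were methylated at 94.2% to 97.0% in every group.

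One Pcdh1 promoter CpG, 25 bp after the start site, was high in double mutant and wild type libraries. It had 56.8%, 47.1% and 70.0% in double mutant libraries, 1.33% and 11.4% in knockout MEPs, 9.52% and 3.45% in Idh2 mutant MEPs and 45.1% and 44.9% in wild type MEPs. The other 15 promoter CpGs averaged 10.1% ± 1.90 in double mutant cells (SD, n = 3), 3.33% ± 1.79 in knockout, 4.61% ± 3.12 in Idh2 mutant and 2.23% ± 1.07 in wild type MEPs (SD, n = 2 each). Over these 15, double mutant and knockout means lay under 10 points apart, so the promoter call against knockout MEPs depended on the CpG at 25 bp.

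Pcdh7, known from brain and heart, ran the other way in its coding exons, which had 9.76%, 16.9% and 10.3% in double mutant libraries, against 40.2% and 39.6% in knockout MEPs, 57.1% and 49.0% in Idh2 mutant MEPs and 33.9% and 41.1% in wild type MEPs. Among GMPs, knockout libraries had 24.8% and 34.3%, Idh2 mutant libraries 73.4% and 55.4% and wild type libraries 30.3% and 47.0%. The double mutant libraries lay below all 12 others. Differences were -25.1 points from wild type (adjusted p = 0.000684), -27.6 from knockout (adjusted p = 0.000808) and -40.7 from Idh2 mutant MEPs (adjusted p = 9.37e-05).

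Within the coding class, the Pcdh7 difference lay mostly at the 3 CpGs of the printed stretch, 2733 to 2878 bp after the start site. Summed over them, the levels were 13.9%, 29.1% and 16.2% in double mutant libraries, 67.5% and 64.4% in knockout MEPs, 85.6% and 76.2% in Idh2 mutant MEPs and 60.8% and 82.9% in wild type MEPs, over 285 to 295, 160 to 163, 125 to 172 and 187 to 199 reads. The other 3 coding CpGs, 2171 to 2197 bp after the start site, averaged 0.499% ± 0.465 in double mutant cells (SD, n = 3) and 2.94% ± 2.71 in wild type MEPs (SD, n = 2). A neighbouring pair of coding exon CpGs, counted as promoter, was also lower in double mutant cells on average. At 2074 bp the means were 4.61% in double mutant cells, 16.3% in knockout, 31.5% in Idh2 mutant and 14.2% in wild type MEPs, and at 2076 bp they were 1.61% in double mutant cells, 7.84% in knockout, 12.5% in Idh2 mutant and 13.05% in wild type MEPs. These CpGs were singled out after their values were seen and have no test. The Pcdh7 promoter (11 CpGs) averaged 3.34% ± 0.851 in double mutant cells (SD, n = 3) and 3.54% ± 0.312 in wild type MEPs (SD, n = 2), a difference of -0.203 points that did not pass the test (adjusted p = 0.973).

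Pcdh9, expressed in neurons, had 8 used CpGs, none in a promoter or coding exon as annotated. The class of remaining CpGs had 59.5%, 56.1% and 59.9% in double mutant libraries, 51.8% and 54.0% in knockout MEPs, 49.9% and 47.6% in Idh2 mutant MEPs and 47.4% and 49.2% in wild type MEPs. It was called against wild type (10.2 points, adjusted p = 0.0212), while 5.61 points from knockout MEPs (adjusted p = 0.240) and 9.77 points from Idh2 mutant MEPs (adjusted p = 0.0467, under 10 points) were not. The 6 of its CpGs that lie 2474 to 1161 bp before the start site had 22.5%, 19.4% and 31.6% in double mutant libraries, 0.877% and 2.15% in knockout MEPs, 0.549% and 2.02% in Idh2 mutant MEPs and 1.38% and 1.53% in wild type MEPs. Over these 6 CpGs summed, the double mutant libraries lay above all others, whose highest value was 3.48%. The seventh upstream CpG, at -1024 bp, did not follow them, with 30.7% in double mutant cells, 36.4% in knockout, 4.55% in Idh2 mutant and 42.05% in wild type MEPs. The stretch of 6 was singled out after its values were seen, leaving that CpG out, and has no test.

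Outside the delta groups, Pcdh15 and Pcdh20 were higher in double mutant cells and Pcdh12 was not called in its coding exons. The Pcdh15 promoter class (16 CpGs) had 35.2%, 42.2% and 41.0% in double mutant libraries, 9.003% and 18.0% in knockout MEPs, 11.6% and 14.3% in Idh2 mutant MEPs and 10% and 8.89% in wild type MEPs. It exceeded wild type by 30.04 points (adjusted p = 9.34e-05), knockout by 26.0 points (adjusted p = 0.000388) and Idh2 mutant by 26.6 points (adjusted p = 0.000993).

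The Pcdh15 difference lay at its outermost start site. The 14 CpGs 199 to 642 bp after that site had 29.1%, 35.9% and 36.2% in double mutant libraries, 1.71% and 1.46% in knockout MEPs, 4.12% and 4.53% in Idh2 mutant MEPs and 1.55% and 2.59% in wild type MEPs. The 53 CpGs of the rest of this gene of 1550393 bp averaged 89.2% ± 0.395 in double mutant cells (SD, n = 3), 88.2% ± 0.293 in knockout, 84.5% ± 0.150 in Idh2 mutant and 86.1% ± 0.628 in wild type MEPs (SD, n = 2 each). That is 3.09 points above wild type (adjusted p = 0.00770), under the 10 points required. One CpG in a Pcdh15 intron, 575707 bp after the start site, had 57.1%, 63.3% and 53.5% in double mutant libraries and 67.8% and 75.0% in wild type MEPs, and is one of the 3 intronic CpGs at which double mutant libraries lay below all others.

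Pcdh20 coding exons (3 CpGs) had 34.0%, 46.7% and 29.5% in double mutant libraries, 15.6% and 7.20% in knockout MEPs, 9.38% and 6.31% in Idh2 mutant MEPs and 6.36% and 7.93% in wild type MEPs. Differences were 29.6 points from wild type (adjusted p = 8.69e-05), 25.4 from knockout (adjusted p = 0.00284) and 28.9 from Idh2 mutant MEPs (adjusted p = 0.00171). One of the 3 CpGs, 1768 bp after the start site, averaged 76.2% in double mutant cells, against 7.53% in wild type MEPs, and the other two 19.4% and 12.7% in double mutant cells against 10.4% and 2.31% in wild type MEPs.

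The Pcdh20 promoter (4 CpGs) had 20.1%, 29.7% and 13.5% in double mutant libraries, 0.340% and 4.14% in knockout MEPs, 1.68% and 0.526% in Idh2 mutant MEPs and 2.45% and 4.59% in wild type MEPs, a difference of 17.6 points from wild type (adjusted p = 0.00726). This call was lost without wild type MEP replicate 1 (adjusted p = 0.0762), in limma (adjusted p = 0.0565) and when the 2 groups were fitted alone (adjusted p = 0.0954).

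Pcdh12, an endothelial protocadherin, had coding exon levels of 40%, 52.8% and 33.9% in double mutant libraries, 44.2% and 21.1% in knockout MEPs, 51.0% and 33.6% in Idh2 mutant MEPs and 48.9% and 50.3% in wild type MEPs. The groups overlapped and the difference from wild type was -7.39 points (adjusted p = 0.432). The remaining CpGs of Pcdh12 were called against knockout MEPs, 14.6 points higher in double mutant cells (adjusted p = 0.0483, background 13.9% of 6458 higher), and against neither other genotype.

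The second question was whether double mutant cells also differed from each single mutant. These comparisons share the double mutant libraries with the one above, so they are not independent of it. Against Dnmt3a knockout MEPs, 9 of the 13 promoter and coding exon sets were higher in double mutant cells and 1, Pcdh7 coding, was lower, on a background of 13.3% of promoters and 12.9% of coding exon sets higher and 0.767% and 1.75% lower. Against Idh2 mutant MEPs, 7 were higher and 1, again Pcdh7 coding, was lower, on a background of 10.9% of promoters and 10.9% of coding exon sets higher and 1.44% and 4.49% lower. The same 8 sets were called in all 3 comparisons, namely Pcdh8 promoter and coding, Pcdh10 coding, Pcdh15 promoter, Pcdh17 promoter, Pcdh20 promoter and coding, and Pcdh7 coding. Median differences over member promoters and coding exon sets were 20.6 and 25.4 points against knockout (0.127 and 1.33 over all genes) and 19.8 and 17.0 points against Idh2 mutant MEPs (0.154 and 2.05 over all genes). The Pcdh20 promoter lost its call without knockout MEP replicate 1 (adjusted p = 0.0570) in the first and without Idh2 mutant MEP replicate 2 (adjusted p = 0.0902) in the second, where the Pcdh8 promoter did as well (adjusted p = 0.0718).

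Single mutants were compared with wild type over GMPs and MEPs together. In Dnmt3a knockout cells no member promoter or coding exon set was called by the quasi-binomial model, against a background of 0.89% of promoters and 2.31% of coding exon sets in either direction; 2 of 13, the Pcdh1 promoter (-4.11 points) and Pcdh12 coding exons (-11.6 points), had an unadjusted p under 0.05, and limma called 0. In Idh2 mutant cells 1 was called, the coding exons of Pcdh7, at 20.7 points above wild type (adjusted p = 0.0235), against a background of 1.08% of promoters and 4.77% of coding exon sets higher. At the 3 Pcdh7 CpGs of the printed stretch, Idh2 mutant libraries had 85.6% and 76.2% in MEPs and 88.4% and 79.2% in GMPs, against 60.8% and 82.9% in wild type MEPs and 61.3% and 69.2% in wild type GMPs. The call was lost with linked GMP and MEP libraries summed (20.2 points, adjusted p = 0.0864), in limma (adjusted p = 0.124), with the groups fitted alone (adjusted p = 0.0727), and without replicate 1 of any one group, wild type GMP (adjusted p = 0.0899), wild type MEP (adjusted p = 0.0704), Idh2 mutant GMP (adjusted p = 0.145) or Idh2 mutant MEP (adjusted p = 0.0597).

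Between MEPs and GMPs, over the 3 genotypes that had both, no member set was called, against a background of 0.0473% of promoters and 0.378% of coding exon sets; 0 of 13 had an unadjusted p under 0.05 and limma called 0. No difference between MEPs and GMPs in the effect of knockout or of the Idh2 mutation was called at any member set by the quasi-binomial model (0 called and 0 of 13 with an unadjusted p under 0.05, background 0.0% of promoters and of coding exon sets, limma 0). Estimates over the 13 sets reached 11.5 points for knockout (Pcdh7 coding exons) and -11.15 points for the Idh2 mutation (Pcdh12 coding exons). Outside the 13, the remaining CpGs of Pcdh12 gave -18.03 points for the Idh2 mutation, also not called. These tests called no set of any gene, so they do not show that the effects were equal. With 2 libraries per group, differences of these sizes may have been missed.

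Among the double mutant libraries, replicate 2 was highest in 7 of the 8 member sets called higher than wild type, and replicate 3 in 1. The same library had the highest mean, 5.63% against 4.61% and 4.66%, over the 128544 autosomal CpGs of the series whose mean level lay below 20%, where wild type MEPs had 1.40% and 1.47%. Whether this global level bears on the protocadherins was not tested.

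All 4 member coding exon sets that were under 20% in wild type MEPs (Pcdh8, Pcdh10, Pcdh17 and Pcdh20) were called higher in double mutant cells. Over all genes, 36.8% of 435 coding exon sets under 20% in wild type MEPs were called higher, as were 11.0% of 9199 promoters under that level, 4 of 6 among the members. The wild type level is itself part of this contrast, and sets at so low a level have little room to be called lower, so no relation between starting level and direction is read from these counts.

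Other cadherin superfamily genes gave a comparison list of 47 genes, of which 21 had a testable promoter and 15 testable coding exons. In double mutant cells 10 of the 21 promoters were higher than in wild type MEPs and 0 were lower, with a median of 11.3 points, on the promoter background given above. The largest difference among these 21 promoters was at Cdh4, R-cadherin, with 55.7% ± 6.99 in double mutant cells (SD, n = 3) and 1.66% ± 0.192 in wild type MEPs (SD, n = 2; 54.0 points, adjusted p = 2.40e-07). Cdh2, N-cadherin, had 44.9% ± 2.92 in double mutant cells, against 2.30% ± 0.145 in wild type MEPs (42.6 points, adjusted p = 3.73e-06), and Celsr3, a planar polarity cadherin, 48.8% ± 8.82 in double mutant cells, against 4.55% ± 0.938 in wild type MEPs (44.2 points, adjusted p = 1.08e-05). Cdh3, Cdh8, Dchs1, Cdh11, Dsg2, Fat4 and Cdh1 were higher by 17.2 to 37.8 points.

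Of the 15 coding exon sets of this list 1 was called higher, on a background of 13.6%, namely Cdh6, with 96.6% ± 4.82 in double mutant cells, against 65.1% ± 9.14 in wild type MEPs (adjusted p = 0.0237). Of these 15 sets, 14 lay at 20% or more in wild type MEPs and 1, Cdh22, lay under 20%. The 4 member coding exon sets called higher all lay under 20%, so the lists differ in starting level. Against knockout MEPs 11 of the 21 promoters were higher (background 13.3%), and against Idh2 mutant MEPs 10 (background 10.9%). In the comparisons of single mutants with wild type, 0 cadherin promoters were called in knockout cells (background 0.89% in either direction) and 1, Dchs1, in Idh2 mutant cells (background 1.08% higher). Between MEPs and GMPs 0 were called (background 0.0473%). The WAVE complex, bound by several delta2 tails, had 8 testable promoters of 10 genes. Of the 8, 1 was called, which is near the promoter background of 11.0% and so is no result about the complex. It was Wasf3, at 44.5% ± 8.60 in double mutant cells (SD, n = 3) and 6.85% ± 3.87 in wild type MEPs (SD, n = 2; 37.7 points, adjusted p = 0.000293).

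**Figure D3:**
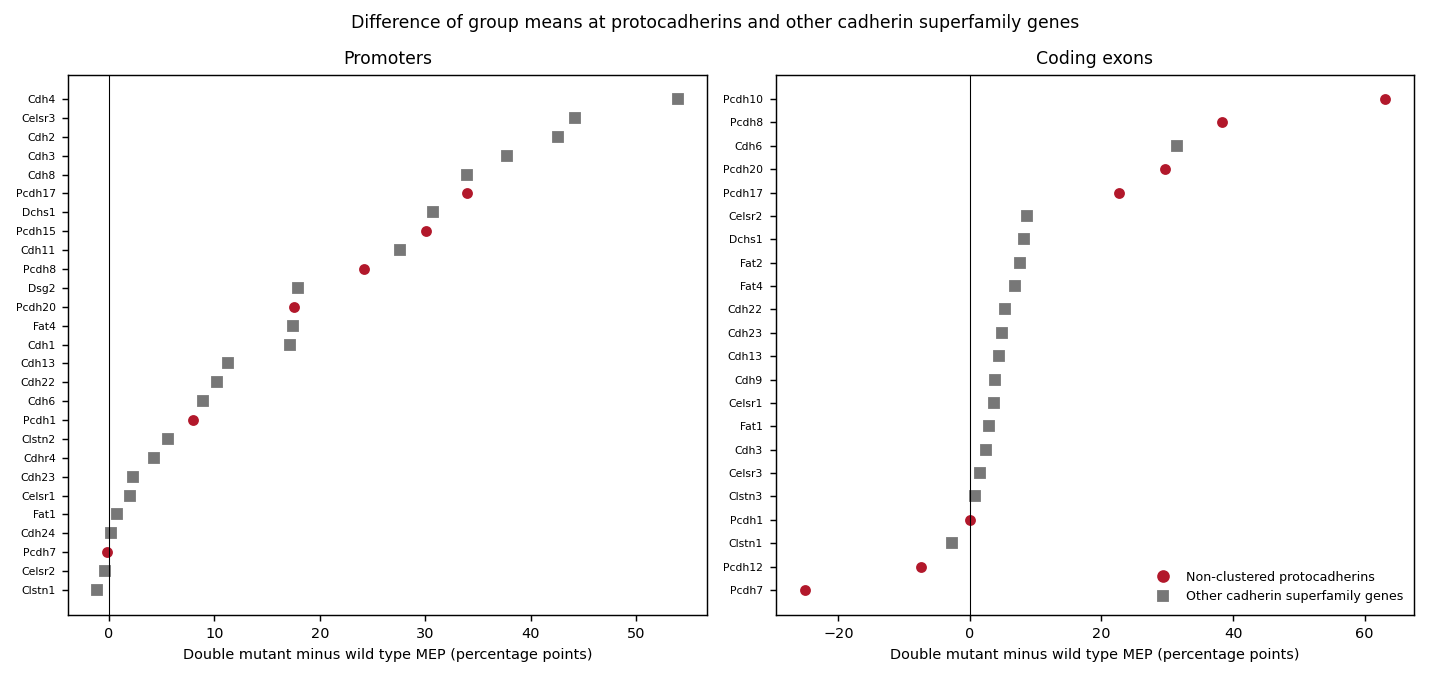
Difference between group means, double mutant minus wild type MEP, in percentage points (x axis) for each testable promoter (left) and coding exon set (right) of the non-clustered protocadherins (circles) and other cadherin superfamily genes (squares), ordered by the difference. Protocadherin promoters reach 34.0 points at Pcdh17 and those of the other cadherins 54.0 points at Cdh4, and Pcdh10 at 63.2 and Pcdh7 at -25.1 points end the coding exon range.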

How the data were processed

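The submitters' processing notes name BSMAP 2.74 and the mm9 build. The deposited tables give, for each cytosine, counts of methylated and of all reads and their ratio as a fraction; these counts, made by the authors, were used here and the deposited fraction was not. Both strands of each CpG were summed, and a CpG was kept where none of the 15 libraries had fewer than 10 reads. Levels are methylated over all reads of a feature. PCR duplicates were not marked, so read numbers overstate the molecules seen. The quasi-binomial model (numpy 2.4.6, scipy 1.17.1) had 7 group means, 8 residual degrees of freedom and a moderated dispersion of at least 1, and was tested on simulated data; p-values were adjusted by Benjamini-Hochberg across the autosomal protein-coding genes of a class in each of 8 comparisons. The alternative test was limma 3.58.1 in R 4.3.3. All listed protocadherins are named, as are comparison list genes that were called. The members and lists were chosen with earlier results of these data known. Title prefixes link a GMP and an MEP library; replicate differences of linked libraries correlated at 0.115 (knockout), 0.419 (Idh2 mutant) and 0.326 (wild type), so these were treated as pairs in the blocked alternative.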

Additional observations from a re-analysis of the deposited data

How the results depend on the processing

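The numbers of member promoters and coding exon sets called kept within 1.5 times in 113 of 125 alternative counts. Many of these 125 belong to comparisons with 0 calls in the main fit, where a count of 0 was scored as kept. These were knockout against wild type, MEPs against GMPs and both differences in effect between MEPs and GMPs. The share of 113 thus says little about the comparisons with calls, whose counts follow. With 20 reads per CpG, 5 sets were left to test, and 4, 4 and 3 were called for double mutant cells against wild type, knockout and Idh2 mutant MEPs, and 0 for Idh2 mutant against wild type cells. That last count was also 0 with the compared groups fitted alone, in limma, with a 25 point minimum and with linked GMP and MEP libraries summed. Leaving out single libraries gave 7 to 9 calls against wild type, 8 to 10 against knockout, 7 to 9 against Idh2 mutant MEPs, and 0 to 1 for Idh2 mutant against wild type cells. A replicate block by the shared replicate number, which did not pair the genotypes (correlations -0.0800 to 0.0849), gave 9, 10 and 9 calls for double mutant cells against wild type, knockout and Idh2 mutant MEPs; the block by title prefix left the comparison of MEPs with GMPs at 0, and neither changed another count. Of 348 alternative values for named sets, 316 kept their call, 32 lost it and 0 changed direction. With the groups fitted alone, Pcdh17 and Pcdh8 promoters lost their calls against Idh2 mutant MEPs (adjusted p = 0.0523 and 0.0786). Averaging CpGs with equal weight moved 22 of 91 levels by more than the spread between replicates, the Pcdh17 promoter in double mutant cells to 44.9% among them. Over all genes, Dnmt3a knockout against wild type calls numbered 24 promoters higher and 70 lower, and 0 and 1 in limma. Depth limits the coding results of Pcdh9, Pcdh15 and Pcdh18, which had too few CpGs. Values after ± are SDs between libraries, and no intervals are given.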

Other observations

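At 4 of the 217 protocadherin CpGs (1.84%), all double mutant and wild type libraries lay on one side of all Dnmt3a knockout and Idh2 mutant libraries, against 0.416% of 241527 autosomal CpGs; the split was noticed in the data and has no test. One is the Pcdh1 CpG 25 bp after the start site described above. Another, in a Pcdh15 intron on chromosome 10 at 73599150 (mm9), was 0% methylated in all 3 double mutant libraries and in all 4 wild type libraries, over 31 to 50 reads in double mutant and 34 to 49 in wild type libraries. The same CpG had 93.5% and 26.1% in knockout MEPs, 80.4% and 14.6% in knockout GMPs, 9.09% and 82.2% in Idh2 mutant MEPs and 7.32% and 14.3% in Idh2 mutant GMPs. The remaining CpGs of this kind, also in Pcdh15, split narrowly. At 72737069 the highest double mutant or wild type library had 70.5% and the lowest single mutant library 73.3%. At 73013253 these were 83.9% and 84.4%. The cause of the split was not tested. The megakaryocytic marker Itga2b, integrin alpha IIb, which was among the marker genes, had a promoter level of 32.2% ± 2.83 in double mutant cells (SD, n = 3) and 17.6% ± 2.41 in wild type MEPs (SD, n = 2), while the rest of the gene had 24.9% ± 5.72 in double mutant cells, against 81.9% ± 4.94 in wild type MEPs. Of the 6 megakaryocyte-erythroid markers, 2 had a testable promoter and 2 a testable rest of the gene. In each class only Itga2b was called against wild type MEPs. Its promoter was higher, on a background of 11.0% of promoters higher, and the rest of the gene was lower. No share over all genes is given for lower calls in the rest of the gene, so that call is not set against a background. Of the other marker genes, the lymphoid Vpreb1 promoter was lower in double mutant cells than in knockout MEPs (-11.7 points, background 0.767% of promoters lower) and Idh2 mutant MEPs (-13.99 points, background 1.44% lower). It was higher in Idh2 mutant than in wild type cells (18.7 points, background 1.08% higher). The granulocytic Elane outside its promoter differed by -10.8 points between double mutant cells and Idh2 mutant MEPs, also without a background share. Each was the only testable gene of its marker list in that class.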
